A study of Arabidopsis thaliana with 2 samples.

Results

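The 10 ends of the Arabidopsis nuclear chromosomes were described from whole-genome bisulfite sequencing of seedlings. A region was counted as belonging to an end when it started within 200 kb of the first or the last base of one of the 5 chromosomes, and 732 of the 56731 listed regions met this rule (56184 of the listed regions are nuclear). The regions are bins spaced every 100 bases, each covering 99 bases, and the table lists only bins whose calls differed between the 2 libraries at p of at most 0.01 in Fisher's exact test. The miP1a-OX library came from transgenic 12-d-old seedlings that carry 35S::FLAG-miP1a, in which the viral 35S promoter drives ectopic production of the microProtein miP1a, a small protein that binds the flowering regulator CONSTANS and the co-repressor TOPLESS. The Col-0 library came from wild-type 12-d-old seedlings of that accession, with no transgene. Both were untreated whole seedlings grown in long days, on plates by the study's methods and on soil by the sample descriptions, and 1 library was made per genotype. No spread between replicates could therefore be measured, and each test compares 2 libraries, not 2 genotypes. Because seedlings mix many tissues, a moderate change in all cells and a large change in a few cells cannot be told apart.

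Chromosome ends carry telomeres, which in Arabidopsis are arrays of a short TTTAGGG repeat that shield the end from being treated as a break. The tops of chromosomes 2 and 4 are also known as the sites of the nucleolus organizers, long arrays of the 45S ribosomal RNA gene that RNA polymerase I transcribes into the 18S, 5.8S and 25S rRNAs. Cytosine methylation in plants occurs in the CG, CHG and CHH contexts (H is A, C or T), is dense on transposons and silent ribosomal genes, and occurs within the bodies of many genes in the CG context alone. The assembly holds only a remnant of the ribosomal arrays: chromosome 2 starts with 1000 undetermined bases followed by 2 annotated rRNA genes, AT2G01010 (18S, bases 3706 to 5513) and AT2G01020 (5.8S in size and place, named 5S in the annotation, bases 5782 to 5945). Chromosome 4 also starts with 1000 undetermined bases, but its first 200 kb hold 0 annotated rRNA genes and 0 matches of at least 300 bases to the ribosomal unit of chromosome 2, as do the other 8 ends for annotated rRNA genes. The ribosomal results below therefore concern chromosome 2 alone, and the top of chromosome 4 was measured as the sequence beside its array.

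The sequences on which the results turn are shown first, read from the plus strand of the TAIR10.1 assembly. The outermost bin of chromosome 2, a bin of the same repeat array further in, and the outer 2 bins of chromosome 4 show the telomere repeat, with exact copies of TTTAGGG in capitals (its reverse complement CCCTAAA was searched as well). At least 3 exact copies stood in 14 of the 20000 bins of the ends (0.07%) and in 688 of the 1191466 nuclear bins (0.0577%), and 9 of the 14 were listed.
chr2:19698201-19698289: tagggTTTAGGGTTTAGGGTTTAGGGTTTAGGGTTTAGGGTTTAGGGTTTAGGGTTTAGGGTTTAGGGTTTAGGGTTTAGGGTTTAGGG
chr2:19697801-19697899: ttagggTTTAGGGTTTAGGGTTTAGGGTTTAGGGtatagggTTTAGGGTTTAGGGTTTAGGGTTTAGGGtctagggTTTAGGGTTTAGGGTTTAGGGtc
chr4:18585001-18585056: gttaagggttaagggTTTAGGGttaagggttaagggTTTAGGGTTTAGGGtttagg
chr4:18584901-18584999: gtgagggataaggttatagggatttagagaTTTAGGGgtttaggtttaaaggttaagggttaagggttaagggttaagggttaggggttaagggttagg
These 4 bins held 39, 44, 24 and 41 cytosines, all of them in the CHH context and none in CG or CHG, since the repeat has its cytosines on one strand in runs of CCC.

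The next window, shown because it lies where ribosomal transcription is known to start, precedes the 18S gene of chromosome 2 and has TATATAGGG in capitals, a stretch known from the start site of Arabidopsis 45S genes. The stretch covers bases 1866 to 1874, 1840 bases before the 18S gene, and was found with its reverse complement CCCTATATA in 22 of the 20000 bins of the ends (0.11%) and in 0.0773% of all nuclear bins.
chr2:1851-1999: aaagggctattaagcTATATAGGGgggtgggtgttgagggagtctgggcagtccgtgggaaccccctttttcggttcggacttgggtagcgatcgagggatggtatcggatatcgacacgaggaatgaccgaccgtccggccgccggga
The 4 differing bins (at least 40 points apart, with at least 10 calls in each library) follow, and after them the bin with the largest difference in MEE65, with each CG in capitals.
chr1:30252401-30252499: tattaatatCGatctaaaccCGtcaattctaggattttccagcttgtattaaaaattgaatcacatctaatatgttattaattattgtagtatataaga
chr2:6801-6899: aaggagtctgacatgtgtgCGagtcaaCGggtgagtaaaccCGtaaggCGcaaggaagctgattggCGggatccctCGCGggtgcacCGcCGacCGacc
chr5:67401-67499: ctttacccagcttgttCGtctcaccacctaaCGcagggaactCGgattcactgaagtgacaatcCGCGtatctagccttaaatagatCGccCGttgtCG
chr5:67501-67599: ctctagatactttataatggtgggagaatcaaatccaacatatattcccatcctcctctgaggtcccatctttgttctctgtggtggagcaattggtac
chr2:145701-145799: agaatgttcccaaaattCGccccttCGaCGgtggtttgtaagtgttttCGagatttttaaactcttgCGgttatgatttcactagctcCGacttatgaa
Counted over both strands, the bin of chromosome 1 held 4 CG cytosines among 24, that of chromosome 2 at base 6801 held 20 among 61, and the 2 neighbours on chromosome 5 held 16 among 50 and 0 among 42.

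Levels are the share of methylated among all calls, where a call is the reading of 1 cytosine in 1 read, and they pool the 3 contexts and both strands. The listed bins of the ends held 445482 calls in miP1a-OX and 468373 in Col-0, out of 24269108 and 24091300 calls in the whole table. The median bin of the ends had 394.5 calls in miP1a-OX and 390 in Col-0, or 11.3 and 11.2 calls per covered cytosine. In the chloroplast, whose DNA is commonly used as an unmethylated control, the 70 listed bins had a pooled level of 0.177% in miP1a-OX and 0.290% in Col-0.

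Both the share of bins listed and the share higher in miP1a-OX were below those of the whole nuclear genome. Of the 20000 bins of the ends, 732 were listed (3.66%), against 4.72% over the whole nuclear genome. A higher level in miP1a-OX was seen in 408 of the 732 (55.7%, 95% Clopper-Pearson interval 52.1 to 59.4%), against 64% of all listed nuclear bins. The pooled level of the ends was 15.6% in miP1a-OX and 17.6% in Col-0, whereas the 55452 other nuclear bins had 16.1% in miP1a-OX and 13.9% in Col-0. The direction of the pooled value of the ends rested on the ribosomal remnant: without the first 10400 bases of chromosome 2, the ends had 13.1% in miP1a-OX and 12.1% in Col-0. These intervals and all others here cover counting error only, and no difference between ends and other bins was tested.

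Most differences were small. The median difference of the 732 bins was 2.60 percentage points (miP1a-OX minus Col-0), against 5.32 points in the other nuclear bins, and 542 bins differed by under 10 points (74.0%, against 66.0% of the others). A difference of at least 20 points was seen in 31 bins, with no count made for the other nuclear bins. No methylated call at all was made in 129 of the 732 bins in miP1a-OX and in 87 in Col-0. Among the 55452 other nuclear bins there were 6666 such bins in miP1a-OX and 4390 in Col-0, so these too were more numerous in miP1a-OX. After Benjamini-Hochberg adjustment over all 1196690 bins of the reference, 247 of the 732 bins kept an adjusted p of at most 0.01 in Fisher's exact test (32.2% of all listed nuclear bins did), of which 128 were higher in miP1a-OX (background 21%) and 119 were lower (background 11.3%). The first 10400 bases of chromosome 2 held 30 of these 119.

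The 10 ends differed in both the number of listed bins and the direction. Listed bins ranged from 43 at the bottom of chromosome 3 (2.15% of its bins) to 154 at the top of chromosome 2 (7.70%), with 108 at the top of chromosome 4 (5.40%) and between 49 and 78 at the others. The pooled level was higher in miP1a-OX at 6 ends and lower at 4. The intervals of the 2 levels did not overlap at 7 ends. Every pooled bin had been listed for a difference at p of at most 0.01, and windows elsewhere were not counted in this way. The tops held 459 listed bins (4.59%), of which 260 were higher in miP1a-OX, and the bottoms held 273 (2.73%), of which 148 were higher.

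**Figure D1:**
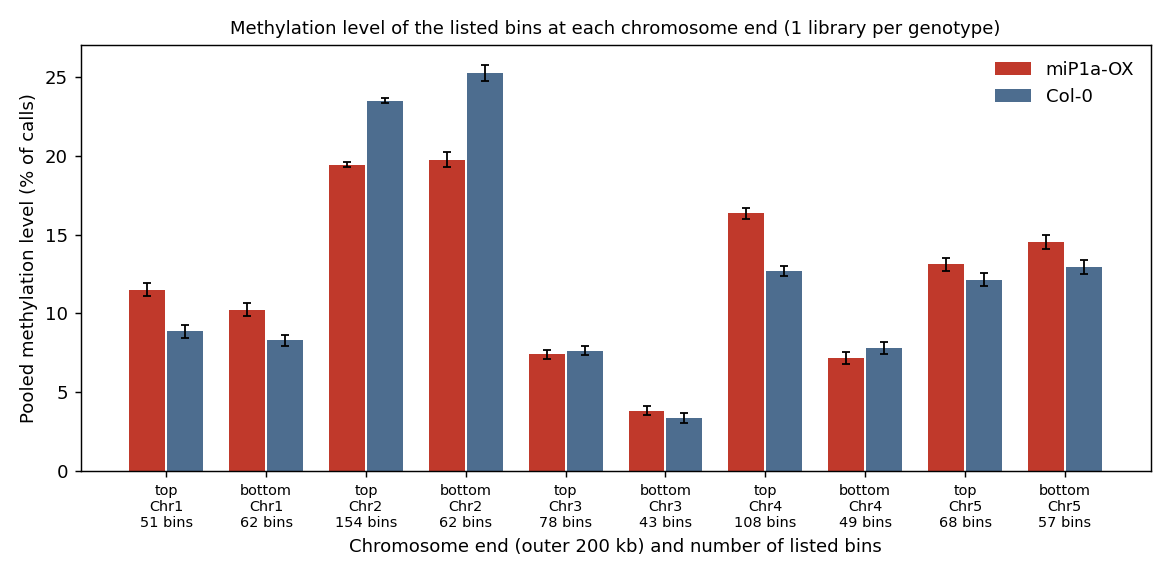
Pooled methylation level (% of calls) of the listed bins at each of the 10 chromosome ends, with miP1a-OX left of Col-0 and 95% Clopper-Pearson intervals (counting error only). Both ends of chromosome 2 were highest in both libraries and lower in miP1a-OX, and the top of chromosome 4 was 3.69 points higher in miP1a-OX.

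The largest pooled gain lay at the top of chromosome 4 and the largest losses at the ends of chromosome 2. The place of the largest gain depended on the processing. In a 100 kb window it was the top of chromosome 1, with 4.10 points against 3.27 at the top of chromosome 4. As an unweighted mean over bins the top of chromosome 1 also led, with 3.86 against 3.80 points. At the top of chromosome 4 the pooled level was 16.3% in miP1a-OX and 12.7% in Col-0, with 68 of 108 bins higher (63.0%). Chromosome 1 was higher in miP1a-OX at both ends, with 11.5% in miP1a-OX and 8.86% in Col-0 at the top and 10.2% in miP1a-OX and 8.30% in Col-0 at the bottom. Chromosome 5 was also higher at both ends, with 13.1% in miP1a-OX and 12.1% in Col-0 at the top, and 14.5% in miP1a-OX and 12.9% in Col-0 at the bottom. At these 5 ends between 57.4 and 66.7% of the listed bins were higher in miP1a-OX, against 64% of all listed nuclear bins.

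At the bottom of chromosome 2 the pooled level was 19.7% in miP1a-OX and 25.2% in Col-0, and 23 of 62 bins were higher, the lowest share of the 10 ends (37.1%). At the top of chromosome 2 it was 19.4% in miP1a-OX and 23.5% in Col-0, with 80 of 154 bins higher. Both ends of chromosome 2 hold unusual sequence at their tips, described below, and their values moved when it was left out. Without its first 10400 bases, the top of chromosome 2 had 18.6% in miP1a-OX and 15% in Col-0, with 77 of 113 bins higher. Without its 7 telomere-repeat bins, the bottom of chromosome 2 had 5.02% in miP1a-OX and 6.76% in Col-0, with 20 of 55 bins higher.

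Chromosome 3 and the bottom of chromosome 4 had small pooled differences, with single bins in both directions. These ranged from -19.4 to 19.8 points at the top of chromosome 3 and from -18.2 to 9.03 points at its bottom. At the bottom of chromosome 4 they ranged from -32.8 to 20 points. An adjusted p of at most 0.01 in Fisher's exact test was kept by 30, 9 and 14 bins of these ends, in that order. The top of chromosome 3 had 7.40% in miP1a-OX and 7.64% in Col-0, with 39 of 78 bins higher. Its bottom had the lowest levels of all ends, 3.85% in miP1a-OX and 3.38% in Col-0. At the bottom of chromosome 4 the level was 7.17% in miP1a-OX and 7.79% in Col-0, with 24 of 49 bins higher. At these 3 ends the pooled difference was under 1 point in size, and at the top of chromosome 3 and at the bottom of chromosome 4 the unweighted mean over bins had the other sign.

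**Figure D2:**
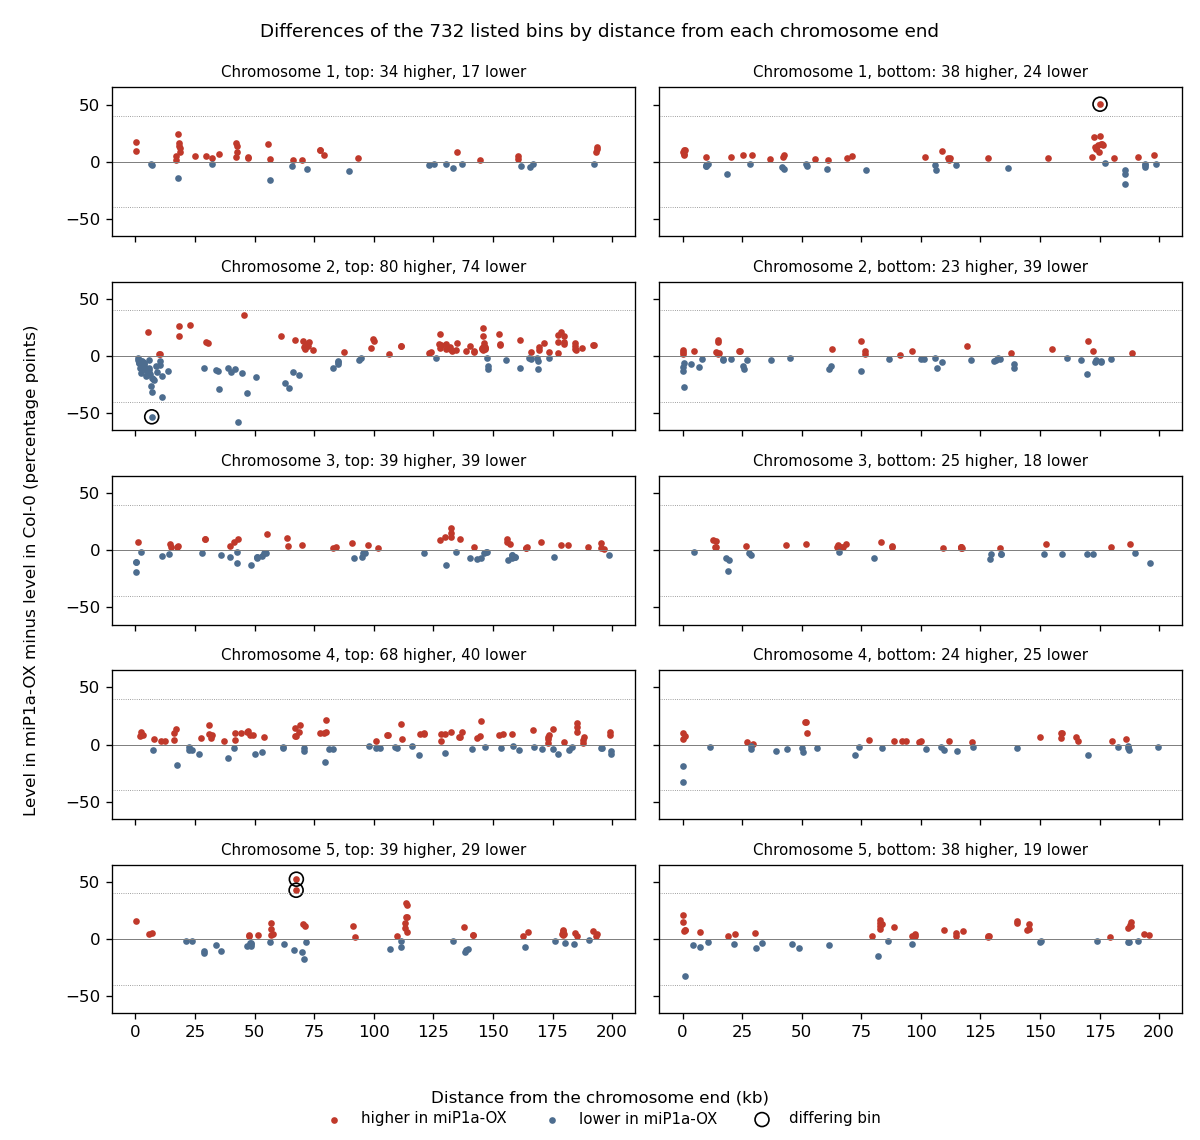
Difference in level (miP1a-OX minus Col-0, percentage points) of each of the 732 listed bins against its distance from the chromosome end in kb, with tops on the left and bottoms on the right. Red points were higher and blue points lower in miP1a-OX, dotted lines mark 40 points, and circles mark the 4 differing bins. Most bins nearest the tip of the top of chromosome 2 lie below 0.

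The pooled level was highest in the outer 50 kb, which hold the ribosomal remnant and the 9 listed telomere-repeat bins. There, 239 bins were listed (4.78%) with a pooled level of 18.4% in miP1a-OX and 22.8% in Col-0, and 108 were higher (45.2%). Most calls of this step came from the first 10400 bases of chromosome 2, with 169658 of 246446 in miP1a-OX and 195945 of 277422 in Col-0. The pooled values of this step therefore rest mostly on those bases, and a relation of level to distance was not tested. From 50 to 200 kb, each 50-kb step was higher in miP1a-OX, with 12.9% in miP1a-OX and 11.2% in Col-0 from 50 to 100 kb, 11.4% in miP1a-OX and 9.0% in Col-0 from 100 to 150 kb, and 12.2% in miP1a-OX and 10.1% in Col-0 from 150 to 200 kb. Further in, to 1000 kb, the steps of 200 kb had 11.1 to 11.5% in miP1a-OX and 10.1 to 10.5% in Col-0. The outermost 10 kb had 18.2% in miP1a-OX and 24.4% in Col-0, with 30 of 89 bins higher, and these 89 include most of the ribosomal bins.

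Intergenic bins at the ends were mostly higher in miP1a-OX, and bins in coding exons were not. Of the 125 intergenic bins, which lie outside genes and outside the 1000 bases before them, 103 were higher in miP1a-OX (82.4%), with a pooled level of 27.9% in miP1a-OX and 23.5% in Col-0. Of the 131 bins within 1000 bases before a gene, 86 were higher (65.6%), with 23.3% in miP1a-OX and 25.3% in Col-0. Without those in the ribosomal remnant, 86 of 120 were higher (71.7%), with 22.0% in miP1a-OX and 17.8% in Col-0. The share of such bins that were higher elsewhere in the nucleus was 77.5%. Of the 345 bins in coding exons, 152 were higher (44.1%), with 6.87% in miP1a-OX and 8.87% in Col-0. Without the 7 of them in the ribosomal remnant the level was 4.82% in miP1a-OX and 5.07% in Col-0, with 152 of 338 bins higher (45.0%). Elsewhere in the nucleus the shares were 78.9% for intergenic bins and 44.3% for coding exons. Coding exons made up 47.1% of the listed bins at the ends and 29.4% elsewhere, and intergenic bins 17.1% at the ends and 27.2% elsewhere.

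**Figure D3:**
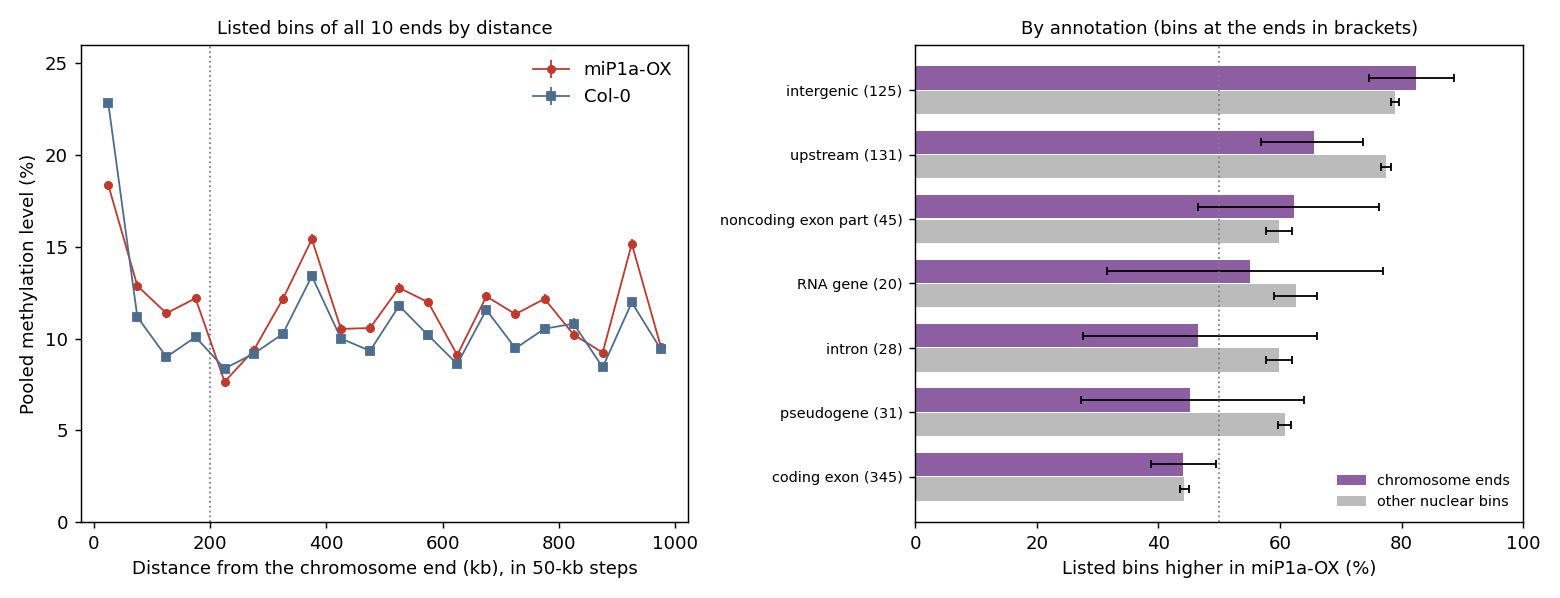
Left, pooled methylation level (%) of the listed bins of all 10 ends in 50-kb steps of distance from the end (miP1a-OX in red, Col-0 in blue, 95% intervals, dotted line at 200 kb). Right, share of listed bins higher in miP1a-OX by annotation, for the ends (upper bars) and other nuclear bins (lower bars), with 95% intervals and a dotted line at 50%. Only the outer step and 2 further steps were lower in miP1a-OX, and the shares of intergenic and coding bins at the ends were 82.4% and 44.1%.

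Sequence context of the bins varied in the same direction. Of the cytosines in the 732 bins, 15.7% stood in CG, 15.3% in CHG and 69.0% in CHH. The 104 bins without any CG were higher in miP1a-OX in 73 cases (70.2%), with 22.5% in miP1a-OX and 21.3% in Col-0. The 153 bins with 9 or more CG cytosines were higher in 57 cases (37.3%), with 19.0% in miP1a-OX and 24.3% in Col-0. Of those 153, 37 lay in the first 10400 bases of chromosome 2, and without them 55 of 116 were higher (47.4%). Methylation itself could not be split by context, because the calls were pooled.

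Only 4 bins of the ends passed all 3 conditions for a differing bin (p of at most 0.01, a difference of at least 40 points and at least 10 calls in each library), which is 0.546% of the 732, against 0.4% of all listed nuclear bins. Higher in miP1a-OX were 3 (background 0.274%) and lower was 1 (background 0.126%). The share of differing bins at the ends was thus near that of the whole table.

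The deepest of these, on chromosome 1 at bases 30252401 to 30252499, had 62 of 86 calls methylated in miP1a-OX (72.1%) and 34 of 156 in Col-0 (21.8%). It lies between genes, 3064 bases from NHO1, which encodes a glycerol kinase, and 175172 bases from the end. The difference was 50.3 points (p = 2.09e-14 in Fisher's exact test, adjusted p = 3.77e-11). The stretch around it reached from base 30251201 to base 30255699. It was extended from this bin while the next listed bin had the same direction, with gaps of at most 1000 bases. Its 12 listed bins, this one included, were therefore higher in miP1a-OX by construction, by 4.27 to 50.3 points. Their pooled level was 35.8% in miP1a-OX and 21.7% in Col-0. This stretch was singled out after its values were seen.

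On chromosome 5, the pseudogene AT5G01185 held a pair of neighbouring differing bins. The bin at bases 67401 to 67499 had 25 of 27 calls methylated in miP1a-OX (92.6%) and 23 of 46 in Col-0 (50%), a difference of 42.6 points (p = 0.000241 in Fisher's exact test, adjusted p = 0.0141). Its neighbour at bases 67501 to 67599 had 19 of 28 in miP1a-OX (67.9%) and 12 of 77 in Col-0 (15.6%), a difference of 52.3 points (p = 6.94e-07 in Fisher's exact test, adjusted p = 0.000135). Both were shallow and rested on few reads, with 1.42 and 1.47 calls per covered cytosine in miP1a-OX and 2.56 and 4.05 in Col-0. The other 4 listed bins of this pseudogene and its upstream bases went both ways, and over all 6 the pooled level was 32.3% in miP1a-OX and 33.0% in Col-0.

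The bin that was lower lay in the ribosomal unit of chromosome 2, at bases 6801 to 6899 beyond the 5.8S gene. It had 3 of 39 calls methylated in miP1a-OX (7.69%) and 25 of 41 in Col-0 (61.0%), a difference of -53.3 points (p = 3.98e-07 in Fisher's exact test, adjusted p = 8.53e-05). Its covered cytosines had 1.26 calls each in miP1a-OX and 1.21 in Col-0, so that few reads lay behind each level. A bin at bases 43101 to 43199 of the same end differed by -57.8 points, with 3 of 22 calls methylated in miP1a-OX and 5 of 7 in Col-0, and was not counted because Col-0 had under 10 calls (p = 0.00792 in Fisher's exact test, adjusted p = 0.180). Just under 40 points lay the bins of chromosome 2 at base 11101 (34 of 115 in miP1a-OX and 50 of 76 in Col-0, -36.2 points) and at base 45701 (11 of 22 in miP1a-OX and 5 of 36 in Col-0, 36.1 points).

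Most listed bins of the ribosomal remnant at the top of chromosome 2 were lower in miP1a-OX. In its first 10400 bases 41 of 104 bins were listed (39.4%, against 4.72% of all nuclear bins). These had a median of 58.9 calls per covered cytosine in each library, against 11.2 in miP1a-OX and 11.1 in Col-0 in the other end bins. Deeper bins can be listed at smaller differences, and whether depth accounts for the share was not tested. Of the 41, 38 were lower in miP1a-OX, with a pooled level of 19.6% in miP1a-OX and 25.2% in Col-0. The 20 listed bins of the spacer and leader before the 18S gene were all lower, with 14.3% in miP1a-OX and 20.8% in Col-0. These were deeply covered, with a median of 81.4 calls per cytosine in miP1a-OX and 93.2 in Col-0.

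The bin just after the start motif, bases 1901 to 1999, had 3496 of 15888 calls methylated in miP1a-OX (22.0%) and 5051 of 18265 in Col-0 (27.7%), a difference of -5.65 points (p = 2.08e-33 in Fisher's exact test, adjusted p = 3.90e-29). The smallest p of the remnant belonged to bases 3501 to 3599, before the 18S gene, with 2429 of 12106 in miP1a-OX (20.1%) and 4152 of 14350 in Col-0 (28.9%) (p = 1.18e-62 in Fisher's exact test, adjusted p = 1.17e-57). The bin at bases 2101 to 2199 differed more, with 352 of 1957 in miP1a-OX (18.0%) and 746 of 2297 in Col-0 (32.5%). Over the 20 spacer and leader bins the loss ranged between 1.37 and 14.5 points. The 16 listed bins of the gene AT2G01008, annotated as a maternal effect embryo arrest protein, overlap this spacer and were all lower.

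Within the 18S gene 5 bins were listed, and here depth was low, at 2.46 to 5.81 calls per cytosine in miP1a-OX and 1.41 to 7.41 in Col-0. The bin at base 4501 had 22 of 244 in miP1a-OX (9.02%) and 31 of 115 in Col-0 (27.0%), the bin at base 4601 had 23 of 210 in miP1a-OX (11%) and 67 of 289 in Col-0 (23.2%), and the bin at base 4701 had 32 of 215 in miP1a-OX (14.9%) and 93 of 294 in Col-0 (31.6%). These 3 neighbours formed a run that was 15.9 points lower in miP1a-OX. The bin at base 5101 had 38 of 187 in miP1a-OX (20.3%) and 59 of 176 in Col-0 (33.5%). The bin at base 5301 went the other way, with 51 of 128 in miP1a-OX (39.8%) and 16 of 83 in Col-0 (19.3%), a difference of 20.6 points (p = 0.00232 in Fisher's exact test, adjusted p = 0.0764).

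The 2 listed bins that overlap the 5.8S gene were deep and lower in miP1a-OX. The first of them lies mostly in the internal spacer, since the gene starts at base 5782. Bases 5701 to 5799 had 1480 of 6284 in miP1a-OX (23.6%) and 2324 of 6833 in Col-0 (34.0%), a difference of -10.5 points (p = 6.76e-40 in Fisher's exact test, adjusted p = 1.88e-35). Bases 5801 to 5899 had 555 of 2531 in miP1a-OX (21.9%) and 936 of 2769 in Col-0 (33.8%), a difference of -11.9 points (p = 6.05e-22 in Fisher's exact test, adjusted p = 3.83e-18). The bin just before them, at bases 5601 to 5699 of the internal spacer, was the most methylated deep bin of the unit in Col-0. It had 2212 of 5307 in miP1a-OX (41.7%) and 2640 of 5847 in Col-0 (45.2%).

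After the 5.8S gene all 9 listed bins up to base 8999 were lower, with 14.9% in miP1a-OX and 33.4% in Col-0 at a median of 2.81 calls per cytosine in miP1a-OX and 3.60 in Col-0. Of these, 4 neighbours at bases 6701 to 7099 formed the run with the largest loss of all ends, 16.1% in miP1a-OX and 42.4% in Col-0. At bases 10001 to 10399 depth was high again, up to 318 calls per cytosine in miP1a-OX and 429 in Col-0, and the direction was mixed. Base 10001 had 2308 of 11760 in miP1a-OX (19.6%) and 2821 of 15866 in Col-0 (17.8%), and base 10301 had 1697 of 6462 in miP1a-OX (26.3%) and 2909 of 8569 in Col-0 (33.9%). Depth also differed between the libraries. The first 10400 bases held 169658 calls in miP1a-OX and 195945 in Col-0, 86.6% as many, against 101% over the other bins of the ends. The listed 18S bins had 103% as many calls in miP1a-OX, at a pooled level of 16.9% in miP1a-OX and 27.8% in Col-0. The 4 deep bins at the inner edge had 79.5% as many, at 31.4% in miP1a-OX and 32.1% in Col-0. The spacer and leader bins had 88.8% as many and a pooled difference of -6.58 points. The bins after 5.8S had 77.8% as many and a pooled difference of -18.5 points. Whether depth and level were related was not tested.

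Another copy of the unit stands inside chromosome 3, and it went the same way. Bases 1001 to 9910 of chromosome 2 aligned to chr3:14194948-14203885 at 99.1% identity over 8938 bases. Of the 90 bins there 63 were listed (70%, against 4.72% of all nuclear bins), 61 of them lower in miP1a-OX. Their pooled level was 17.7% in miP1a-OX and 23.8% in Col-0. The copies are nearly identical and both stand for arrays of many units, so that reads of one may not be told apart from reads of another. This was not tested, and the copy is not taken as an independent measurement.

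The 9 listed telomere-repeat bins had a pooled level of 75.9% in miP1a-OX and 76.7% in Col-0, and both level and direction depended on the bin. Single bins ranged between 26.8 and 98.0% in miP1a-OX and between 36.6 and 100% in Col-0, and the deep outer bins of chromosome 2 weighed most in the pooled value. Of the 41 listed bins whose cytosines all stood in CHH, 6 had over 50% in both libraries.

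At the bottom of chromosome 2 the outer 3 bins were near full methylation in both libraries and slightly higher in miP1a-OX. Their median depth was 26.5 calls per cytosine in miP1a-OX and 42.3 in Col-0, against 11.3 and 11.2 over all ends. They consist almost wholly of the repeat, so that reads of other telomeres may not be told apart from theirs. Whether mapping or conversion affected their levels was not tested. The outermost had 903 of 921 in miP1a-OX (98.0%) and 1029 of 1072 in Col-0 (96.0%), the next had 1298 of 1411 in miP1a-OX (92.0%) and 1579 of 1821 in Col-0 (86.7%), and the third had 1047 of 1166 in miP1a-OX (89.8%) and 1599 of 1860 in Col-0 (86.0%). Of these the middle one had an adjusted p of 0.000285 in Fisher's exact test, and the other two had 0.192 and 0.0665.

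The 4 bins inside them, where exact repeats alternate with variants such as TCTAGGG and TATAGGG, were all lower in miP1a-OX. From the outside in they had 121 of 452 in miP1a-OX (26.8%) and 226 of 617 in Col-0 (36.6%), then 299 of 803 in miP1a-OX (37.2%) and 528 of 1056 in Col-0 (50%), then 556 of 797 in miP1a-OX (69.8%) and 700 of 919 in Col-0 (76.2%), and last 37 of 51 in miP1a-OX (72.5%) and 32 of 32 in Col-0 (100%). Only the second of them, at bases 19697801 to 19697899, had an adjusted p of at most 0.01 in Fisher's exact test (1.38e-05). The nearest gene, AT2G48160 (a Tudor/PWWP/MBT domain protein), starts 780 bases from the innermost of these bins.

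The other ends with repeat bins showed both directions. The terminal bin of chromosome 4 had 104 of 128 calls methylated in miP1a-OX (81.3%) and 181 of 181 in Col-0 (100%), a difference of -18.8 points (p = 1.63e-10 in Fisher's exact test, adjusted p = 1.09e-07). The bin beside it, with 1 exact repeat, had 91 of 152 in miP1a-OX (59.9%) and 215 of 232 in Col-0 (92.7%), a difference of -32.8 points (p = 8.43e-15 in Fisher's exact test, adjusted p = 1.66e-11). The terminal listed bin of chromosome 5, 3 bases from its end, had 109 of 167 in miP1a-OX (65.3%) and 105 of 236 in Col-0 (44.5%), a difference of 20.8 points (p = 4.79e-05 in Fisher's exact test, adjusted p = 0.00408).

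Tips with fewer than 3 exact repeats in the bin also differed in direction. At base 201 of chromosome 1 the level was 73 of 394 in miP1a-OX (18.5%) and 4 of 288 in Col-0 (1.39%) (p = 1.92e-14 in Fisher's exact test, adjusted p = 3.48e-11), in a bin with 29 cytosines, all in CHH. At base 201 of chromosome 3 it was 17 of 294 in miP1a-OX (5.78%) and 77 of 306 in Col-0 (25.2%) (p = 2.16e-11 in Fisher's exact test, adjusted p = 1.86e-08), and the run of 3 bins there, bases 201 to 499, had 5.15% in miP1a-OX and 18.1% in Col-0. At base 301 of chromosome 5 the level was 98 of 267 in miP1a-OX (36.7%) and 81 of 389 in Col-0 (20.8%). Over the terminal 1000 bases of all ends, 26 of 100 bins were listed (26%, against 4.72% of all nuclear bins). Of these, 17 were higher, with a pooled 48.3% in miP1a-OX and 47.2% in Col-0.

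The nearest listed bins at the other ends lay further in. At the bottom of chromosome 1, 372 bases from the end in the pseudogene AT1G81020, it was 164 of 454 in miP1a-OX (36.1%) and 173 of 620 in Col-0 (27.9%). At the top of chromosome 4, at base 1901, it was 104 of 498 in miP1a-OX (20.9%) and 67 of 508 in Col-0 (13.2%). At the bottom of chromosome 3 it was 4731 bases from the end in CCD1, a carotenoid cleavage dioxygenase, with 0 of 408 in miP1a-OX, which allows a level of up to 0.735%, and 8 of 452 in Col-0 (1.77%). The adjusted p of the last was 0.183 in Fisher's exact test.

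Some neighbouring bins moved together. Runs of at least 3 neighbouring listed bins of one direction numbered 34 and held 133 of the 732 bins, with 19 runs higher in miP1a-OX and 15 lower, of which 6 lay in the first 10400 bases of chromosome 2.

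The longest run, of 13 bins, covered the start of MEE65 (AT2G01280) at the top of chromosome 2, bases 145501 to 146799. MEE65 is annotated as a Cyclin/Brf1-like TBP-binding protein, a relative of the Brf1 factor that serves RNA polymerase III. Over the run 12.5% of calls were methylated in miP1a-OX and 2.41% in Col-0. The bin at bases 145701 to 145799, just inside the gene, had 85 of 331 in miP1a-OX (25.7%) and 4 of 473 in Col-0 (0.846%), a difference of 24.8 points (p = 5.81e-31 in Fisher's exact test, adjusted p = 9.03e-27). The bin at base 145901 had 61 of 323 in miP1a-OX (18.9%) and 8 of 499 in Col-0 (1.60%). The first bin, before the gene's start, had 22 of 350 in miP1a-OX (6.29%) and 0 of 545 in Col-0, which allows a level of up to 0.550%.

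Further into MEE65 the direction turned. The bin at base 147601 had 0 of 676 in miP1a-OX and 10 of 474 in Col-0 (2.11%), that at base 147901 had 62 of 553 in miP1a-OX (11.2%) and 49 of 220 in Col-0 (22.3%), and that at base 148001 had 0 of 486 in miP1a-OX and 33 of 382 in Col-0 (8.64%). Depth along the gene was 220 to 676 calls per bin and library.

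**Figure D4:**
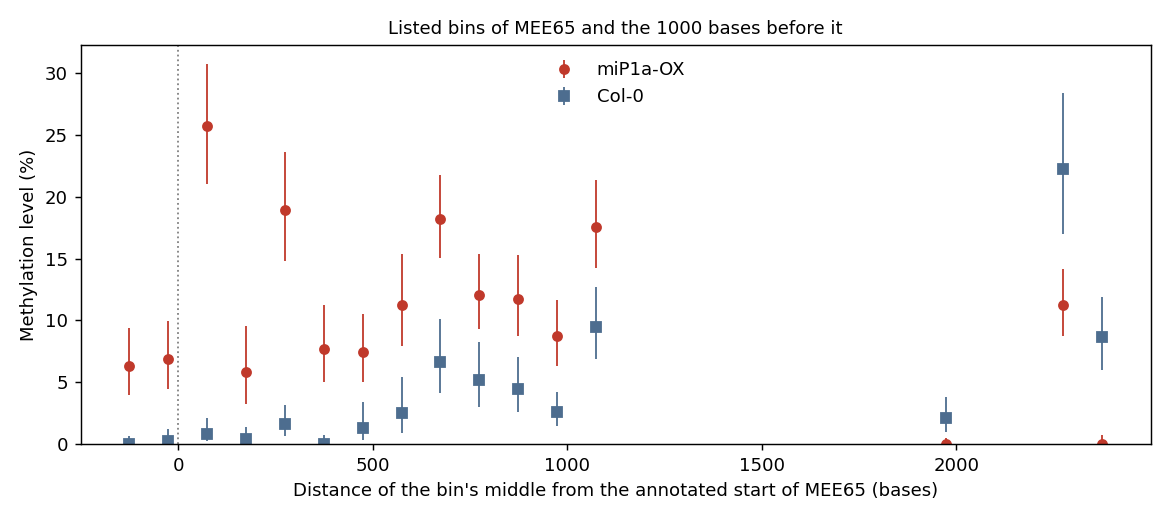
Methylation level (%) of the 16 listed bins of MEE65 and the bases before it, by distance in bases of the bin's middle from the annotated start (dotted line), with 95% Clopper-Pearson intervals, miP1a-OX in red and Col-0 in blue. The first 13 bins were higher in miP1a-OX and the last 3 lower.

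Of the other runs that were higher in miP1a-OX, the largest difference was at bases 113601 to 114099 of chromosome 5, which reach into AT5G01280. Its 5 bins had 35.5% in miP1a-OX and 13.8% in Col-0, and its bin at base 113901 had 180 of 337 in miP1a-OX (53.4%) and 116 of 489 in Col-0 (23.7%) (p = 2.77e-18 in Fisher's exact test, adjusted p = 1.04e-14). At the top of chromosome 1, bases 18001 to 18299 had 42.6% in miP1a-OX and 23.4% in Col-0, 4287 bases from the nearest gene, NGA3, which encodes an AP2/B3-like transcription factor. At the top of chromosome 3, bases 132401 to 132699 had 40.3% in miP1a-OX and 24.2% in Col-0.

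At the top of chromosome 4, bases 185101 to 185399 had 47.9% in miP1a-OX and 33.7% in Col-0 and overlap PIP1;4, an aquaporin gene. Bases 179701 to 179999 of chromosome 2 had 53.6% in miP1a-OX and 40.8% in Col-0. The single bin with the largest difference at the top of chromosome 4, bases 80001 to 80099, had 220 of 357 in miP1a-OX (61.6%) and 146 of 363 in Col-0 (40.2%) and lies 334 bases from PME38, a pectin methylesterase gene. In these 3 regions Col-0 already had 33.7 to 40.8%, against 2.41% over the MEE65 run.

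Runs that were lower in miP1a-OX outside the ribosomal and telomere sequence mostly had low levels in both libraries. Bases 30241901 to 30242199 of chromosome 1, in AT1G80440, had 0.654% in miP1a-OX and 10.9% in Col-0. The bin at base 30242101 there had 0 of 131 in miP1a-OX, which allows up to 2.29%, and 18 of 94 in Col-0 (19.1%). Bases 50901 to 51199 of chromosome 3, before PTB1, had 0.274% in miP1a-OX and 6.84% in Col-0, and all 5 listed bins of PTB1, which encodes a polypyrimidine tract-binding splicing regulator, and of its upstream bases were lower. The largest single difference at the bottom of chromosome 3 was of this kind, in the serine carboxypeptidase-like gene scpl40, with 0 of 179 in miP1a-OX, which allows up to 1.68%, and 29 of 159 in Col-0 (18.2%) (p = 7.20e-11 in Fisher's exact test, adjusted p = 5.33e-08).

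Smaller gains at low levels were also seen. All 5 listed bins of RRF, the chloroplast ribosome recycling factor at the bottom of chromosome 3, were higher, with 2.58% in miP1a-OX and 0.136% in Col-0. At the bottom of chromosome 5 the largest difference was a loss at bases 26974401 to 26974499, with 1 of 36 in miP1a-OX (2.78%) and 36 of 103 in Col-0 (35.0%), while 4 listed bins between it and the end were higher.

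Genes at the ends numbered 766, of which 346 had a listed bin in the body or the 1000 bases before it. AT2G01008 and MEE65 had the most, with 16 bins each, followed by the 18S gene AT2G01010 with 12, MIR5642b, a miRNA precursor gene, with 11 and the uncharacterized RNA gene AT2G03875 with 8. Apart from MEE65 these genes all lie in the ribosomal remnant, and the bins of MIR5642b are also counted for AT2G01008, which it overlaps. The protein-coding genes AT2G48160 and AT5G01130 followed with 7 each. Of AT2G48160's bins 1 was higher, and 3 of its 7 are the inner telomere-repeat bins.

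Among 12 regulators and other well-studied genes that lie at the ends, 7 had a listed bin, against 346 of all 766 genes there. Of the 19 bins of these 7 genes, 13 were higher in miP1a-OX, against 64% of all listed nuclear bins. DCL1, the endonuclease that makes miRNAs, had 16 of 298 in miP1a-OX (5.37%) and 0 of 395 in Col-0, which allows up to 0.759%, at base 29701 of chromosome 1 (p = 1.08e-06 in Fisher's exact test, adjusted p = 0.000195). LHY, a transcription factor of the circadian clock, had 38 of 401 in miP1a-OX (9.48%) and 8 of 338 in Col-0 (2.37%) in 1 bin. ALC, a transcription factor known for fruit opening, had 2 upstream bins, with differences of 11.5 and 14.7 points.

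CGS1, which encodes the first enzyme dedicated to methionine synthesis and is named MTO1 in the annotation, had 6 bins, 3 in each direction, from -11.3 to 9.55 points. BRCA2A, a recombination gene near the tip of the top of chromosome 4, had 3 of 4 bins higher, and WRKY40, a transcription factor of defence responses, had 2 of 3 higher. HB16, a homeodomain-leucine zipper gene, had 1 bin, with 0 of 613 in miP1a-OX, which allows up to 0.489%, and 11 of 622 in Col-0 (1.77%). NAC001, SNRK2-7, TOE3, MARD1 and BB had 0 listed bins, and an unlisted bin shows only that p was above 0.01 or that it had no calls.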

How the data were processed

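DNA methylation was measured by bisulfite sequencing in 1 library of miP1a-OX and 1 of Col-0. The authors mapped the reads with BS-Seeker2 (version 2.1.0) to TAIR9 and tested bins of the genome. Per bin and library, the deposited counts give methylated and unmethylated calls, cytosines, and cytosines with a call, without normalization. The cytosine counts equal C plus G in every listed nuclear bin, so levels pool all contexts. Since the table keeps bins with p of at most 0.01, pooled levels are those of listed bins. Not used were the authors' p-values, their list of differing bins with gene annotation, and 5 other value columns per library (reads and levels).

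Each listed bin was tested again by the two-sided Fisher's exact test (scipy 1.17.1, python 3.11.15), with Benjamini-Hochberg adjustment over 1196690 bins. A bin was called differing when p was at most 0.01, the levels were 40 points or more apart and both libraries had 10 calls or more. Levels carry 95% Clopper-Pearson intervals, and for 0 methylated calls the limit is 3 calls of the total. Names, sequences and coordinates follow RefSeq's TAIR10.1, which matched C plus G of all listed nuclear bins. Bins were assigned to a gene when they overlapped it or the 1000 bases before it. Copies of the ribosomal unit were sought with blastn 2.17.0 (identity of at least 90%, 300 bases or more). The ribosomal remnant ends with the last bin near the top of chromosome 2 that had over 1200 calls in a library. The code was tested on simulated data.

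Named were the differing bins, for each end the bin with the largest difference and the outermost bin, the bins of rRNA genes, the leading runs in both directions, the genes with the most bins, and 12 well-studied genes. Ends, rules and lists were chosen with earlier results of these data known. Alternatives were other minimums, thresholds and windows, adjusted p, equal depth, unweighted means, and omission of the tops of chromosomes 2 and 4 or of rRNA genes. Omission of the ribosomal remnant or of telomere-repeat bins was chosen after seeing the data.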

Additional observations from a re-analysis of the deposited data

How the results depend on the processing

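No paired analysis was possible because miP1a-OX and Col-0 are represented by a single library, which also leaves no library to omit. The count of differing bins was 1 with a coverage minimum of 50 calls and 11 with a difference of at least 30 points, and between 3 and 5 under the other alternatives. The share of bins higher in miP1a-OX was 51.8% at an adjusted p of at most 0.01 and 50.5% in a 100 kb window. The share of bins listed was 2.005% at p of at most 0.001. The pooled difference of the ends (-2.04 points) changed sign as an unweighted mean over bins (1.44 points), without the top of chromosome 2 (0.541 points), without the first 10400 bases of chromosome 2 (0.953 points) and without those bases and the telomere-repeat bins (1.48 points). It was -3.56 points in a 100 kb window, -1.83 points without the rRNA genes, -0.793 points at equal depth by thinning, -0.114 points without the tops of chromosomes 2 and 4, and -1.85 points without the telomere-repeat bins. Of the single ends, the top of chromosome 2 was 3.59 points higher in miP1a-OX without its first 10400 bases, and the unweighted means were 0.431 points at the top of chromosome 3 and 0.244 points at the bottom of chromosome 4, opposite in sign to their pooled values. Leaving out bins removes their calls from the pool by construction, an unweighted mean gives a shallow bin the weight of a deep one, and the cause of the other changes was not tested. Depth limits the 18S bins, at 1.41 to 7.41 calls per cytosine, and the differing bins of chromosomes 2 and 5, at 1.21 to 4.05.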

Other observations

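The 31 listed bins in pseudogenes at the ends had the highest median level of the annotation classes in both libraries, 30.5% in miP1a-OX and 34.2% in Col-0. Of these, 14 were higher in miP1a-OX (45.2%), against 60.8% of the pseudogene bins elsewhere in the nucleus, a difference that was not tested.

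Organelle bins, which lie outside the ends, were mostly lower in miP1a-OX. Of the 477 listed mitochondrial bins 85 were higher (17.8%), with pooled levels of 1.69% in miP1a-OX and 2.69% in Col-0, and of the 70 chloroplast bins 18 were higher (25.7%).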
